A study of Mus musculus with 4 samples.

Results

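The genes described here serve ER stress signalling, ER-associated degradation (ERAD) and protein export. They were chosen by name, as the 50 genes of a list whose symbols appear in the deposited feature tables. The list was drawn up with earlier results of these data known. The 50 genes correspond to 51 entries, since *Ddit3* is listed under 2 identifiers, out of 32285 entries without the mark of a deprecated probe. All 51 had counts in the data. The tissue was formalin-fixed, paraffin-embedded mouse pancreas, taken from 4 animals after caerulein, a cholecystokinin analogue that causes acute pancreatitis. 2 sections came from mice labelled as wild type with Pdx1-Cre, called *Ehmt2* +/+ here. The other 2 came from mice labelled as *Ehmt2* knockout with Pdx1-Cre, called *Ehmt2* fl/fl here. In these the histone methyltransferase gene *Ehmt2* is flanked by loxP sites. All 4 mice carried Pdx1-Cre, so the controls expressed the recombinase too. Pdx1-Cre acts in the epithelium that descends from pancreatic progenitors, endocrine as well as exocrine, so other cells of a section keep the gene. The mice were on a C57Bl/6 background and 4 weeks old, were fasted for 12 h, received 8 hourly injections of 50 μg/kg caerulein and were killed 18 h after the first one. Each section was from its own mouse, giving 2 replicates a genotype, and no section came from an animal without caerulein.

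The acinar cell makes more protein than almost any other cell, and nearly all of it is digestive enzyme that enters the ER while it is being made. The signal recognition particle and its receptor bring ribosomes to the Sec61 channel, the signal peptidase complex cuts off the signal peptide, and chaperones and disulfide isomerases fold the product. Misfolded chains are pulled back to the cytosol through the Hrd1 complex, formed by *Syvn1* and its partner *Sel1l*, and are degraded by the proteasome. When unfolded protein accumulates, the sensors Ire1 (gene *Ern1*), *Atf6* and Perk (gene *Eif2ak3*) start the unfolded protein response. Ire1 splices the messenger RNA of *Xbp1*, whose protein raises chaperones and ERAD genes, whereas Perk slows translation and lets *Atf4* be made, which acts on *Ddit3* (Chop), *Trib3* and *Ppp1r15a* (Gadd34).

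The unfolded protein response is known to act through short motifs before the start of its target genes, and the sites found are shown first because several chaperone and ERAD genes of the list hold them. In the RefSeq promoter sequences of mouse build GRCm38.p6, 41 of the 50 genes had an entry. *Sec11c*, *Spcs3*, *Sec61a1*, *Kdelr2*, *Atf6*, *Ssr2*, *Derl1*, *Manf* and *Hyou1* had none there. The 250 bases before each start were searched on both strands for the ER stress element (ERSE, the block CCAAT, 9 bases of any kind and the block CCACG), which *Atf6* and *Xbp1* are known to use together with NF-Y. It was found before 9 of 41 member genes (21.95%), which had 42 promoter entries, against 0.113% of all 32851 promoter entries. Genes of the unfolded protein response were put on the list for that role, so these shares are no test. The sites follow with 10 bases on either side, the fixed letters in capitals, each read 5′ to 3′ along the strand that holds the motif; *Hsp90b1* has a pair of them.
*Hspa5* (chr2:34772015-34772053, plus strand): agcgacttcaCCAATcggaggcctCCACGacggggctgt
*Hsp90b1* distal (chr10:86705628-86705666, minus strand): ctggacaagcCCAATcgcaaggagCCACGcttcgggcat
*Hsp90b1* proximal (chr10:86705523-86705561, plus strand): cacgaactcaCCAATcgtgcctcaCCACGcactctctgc
*Calr* (chr8:84847065-84847103, plus strand): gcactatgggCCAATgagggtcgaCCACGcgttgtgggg
*Canx* (chr11:50325790-50325828, minus strand): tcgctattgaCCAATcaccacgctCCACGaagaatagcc
*Pdia6* (chr12:17266481-17266519, plus strand): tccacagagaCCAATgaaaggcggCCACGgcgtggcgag
*Dnajc3* (chr14:118937817-118937855, plus strand): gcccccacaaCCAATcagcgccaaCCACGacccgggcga
*Creld2* (chr15:88819510-88819548, minus strand): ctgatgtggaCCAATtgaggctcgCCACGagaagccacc
*Syvn1* (chr19:6046522-6046560, plus strand): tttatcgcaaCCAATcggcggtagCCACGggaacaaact
*Derl3* (chr10:75893232-75893270, minus strand): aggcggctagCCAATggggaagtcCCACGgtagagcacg

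The site of *Hspa5* ended 47 bases before the start and that of *Syvn1* 26 bases before it, while the distal site of *Hsp90b1* ended 194 bases before it. The second form, ERSE-II (the block ATTGG, 1 base of any kind and the block CCACG), was found before *Herpud1* alone among the members (0.0304% of all promoters). The unfolded protein response element of spliced *Xbp1* (UPRE, TGACGTGG) was found before *Vcp* and *Kdelr3* (0.563% of all promoters). No member's window held the letters TGATGNAAT, where N is any base, a form of the element bound by *Atf4* and Chop, which 0.816% of all promoters hold. None of these sites overlapped another. A match describes these letters only, and a window without one says nothing about the factor. The other 3 sites are these.
*Herpud1* (chr8:94386367-94386397, plus strand): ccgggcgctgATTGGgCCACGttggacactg
*Vcp* (chr4:43000604-43000631, minus strand): tgcggccaatTGACGTGGcgttactagg
*Kdelr3* (chr15:79516368-79516395, minus strand): ggccgcgcggTGACGTGGcggggcggcc

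The 250 bases before the start are also given for *Sel1l*, *Pdia2* and *Trib3*, the members on which the comparisons below turn. None of the 4 motifs was found in them.
*Sel1l* (chr12:91849158-91849407, minus strand): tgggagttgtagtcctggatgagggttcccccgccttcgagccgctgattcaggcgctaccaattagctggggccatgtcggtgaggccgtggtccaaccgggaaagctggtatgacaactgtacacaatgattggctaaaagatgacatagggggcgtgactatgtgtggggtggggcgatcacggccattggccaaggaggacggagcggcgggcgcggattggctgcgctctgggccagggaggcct
*Pdia2* (chr17:26199088-26199337, minus strand): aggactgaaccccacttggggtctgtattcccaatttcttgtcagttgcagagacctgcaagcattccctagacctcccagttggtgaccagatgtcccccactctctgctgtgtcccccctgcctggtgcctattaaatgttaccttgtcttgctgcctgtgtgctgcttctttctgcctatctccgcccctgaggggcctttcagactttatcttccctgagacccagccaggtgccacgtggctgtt
*Trib3* (chr2:152344061-152344310, minus strand): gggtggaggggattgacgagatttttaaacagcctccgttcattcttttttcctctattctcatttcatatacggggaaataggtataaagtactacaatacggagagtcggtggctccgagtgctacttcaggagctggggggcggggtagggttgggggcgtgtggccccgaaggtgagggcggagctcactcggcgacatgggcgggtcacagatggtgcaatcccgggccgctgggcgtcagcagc

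Transcripts were measured with the CytAssist Visium assay, in which pairs of probes bound to RNA in the section are moved onto a slide of barcoded spots, and a random tag, the unique molecular identifier (UMI), lets copies of the same molecule count once. A spot can hold several cells or part of one. Spots over tissue held 43803829 and 8697030 UMIs in the *Ehmt2* +/+ sections and 7000825 and 8501140 in the *Ehmt2* fl/fl sections, and values are given in that order, replicate 1 first, throughout. *Ehmt2* +/+ replicate 1 stood apart in depth, with a median of 6285 UMIs a spot against 759 to 932 in the other 3 sections. Genes of digestive enzymes took 63.0% and 50.7% of the UMIs in the *Ehmt2* +/+ sections and 21.4% and 20.6% in the *Ehmt2* fl/fl sections. Levels are therefore given as UMIs of a gene per 1000000 UMIs outside the enzyme genes (CPM). These genes of the acinar cell were the most abundant cell type markers in every section, as the labelled tissue has them. Olfactory receptor genes, which the pancreas is not known to use, served as a measure of background counts. They took 0.0843% of the UMIs outside the enzyme genes in *Ehmt2* +/+ replicate 1 and 1.29% to 1.86% in the other sections, and 95% of them lay under 1.54, 19.1, 21.8 and 27.5 CPM. The count of *Ehmt2* was lowest in *Ehmt2* +/+ replicate 2 and does not check the labels. 4 Y-linked genes had 0 or 1 UMI in both *Ehmt2* +/+ sections and 36 to 150 UMIs in both *Ehmt2* fl/fl sections, and the genotypes also lay on different capture areas of the slides. Genotype, sex and capture area cannot be told apart in any comparison between genotypes below. In a spot, fewer acinar cells and less RNA in each of them cannot be told apart either.

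47 of the 51 entries lay above the 95th percentile of the olfactory receptor genes in all 4 sections. The exceptions were *Sel1l*, *Derl3*, *Dnajb9* and *Sec63*, whose levels in the section or sections concerned cannot be told from background counts. *Hsp90b1*, the ER chaperone Grp94, had 1455 and 1497 in the *Ehmt2* +/+ sections and 3098 and 2462 in the *Ehmt2* fl/fl sections. *Hspa5*, which encodes BiP, the chaperone that holds the 3 sensors inactive, had 932 and 806 in the *Ehmt2* +/+ sections and 1494 and 1172 in the *Ehmt2* fl/fl sections. In both chaperones the 2 *Ehmt2* fl/fl sections lay above the 2 *Ehmt2* +/+ sections, as in 48.1% of all genes. At the low end *Dnajb9*, a co-chaperone of BiP, had 2.22 and 7.69 in the *Ehmt2* +/+ sections and 6.54 and 7.26 in the *Ehmt2* fl/fl sections, above the 95th percentile of the olfactory receptors in *Ehmt2* +/+ replicate 1 alone. Levels are not compared between genes, because probes differ between genes. Over all 51 entries together the level was 16834 and 12724 in the *Ehmt2* +/+ sections and 15541 and 12699 in the *Ehmt2* fl/fl sections, and the genotypes overlapped.

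**Figure D1:**
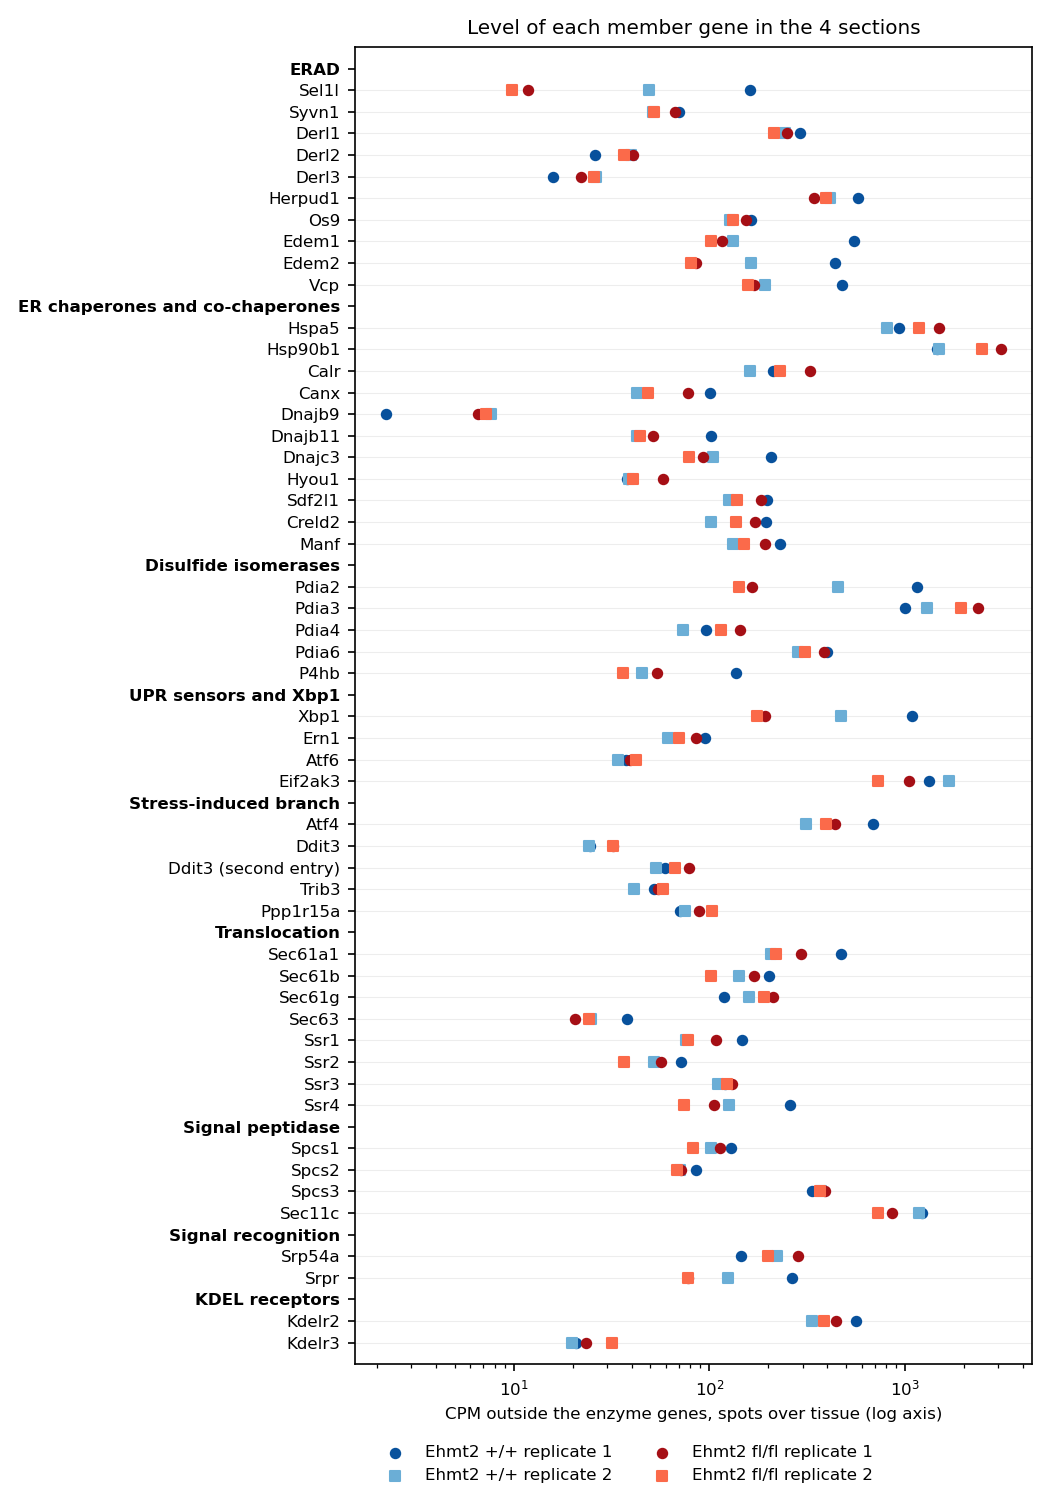
Level of each of the 51 entries in the 4 sections, in CPM outside the enzyme genes over tissue, on a log axis. Blue points are *Ehmt2* +/+ and red points *Ehmt2* fl/fl, with circles for replicate 1 and squares for replicate 2; *Sel1l* shows the widest gap between genotypes, with 161 and 49.2 against 11.8 and 9.78.

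The first comparison asked how the genes follow the enzyme content of the tissue. The enzyme share of a spot is the percentage of its UMIs that came from enzyme genes, and spots with at least 500 UMIs were ranked by it within each section. The lowest of 3 equal groups, called enzyme-poor here, had median shares in percent of 57.7 and 41.2 in the *Ehmt2* +/+ sections and 9.80 and 7.48 in the *Ehmt2* fl/fl sections, and the highest, called enzyme-rich, 65.4 and 59.2 in the *Ehmt2* +/+ sections and 31.7 and 30.3 in the *Ehmt2* fl/fl sections. UMIs were summed over each group, enzyme genes were left out, and the poor and the rich group of a section were compared with the section as a block (quasi-likelihood test of edgeR, p-values adjusted after Benjamini and Hochberg over 19896 genes). The enzyme-rich group was higher in 34 of 51 entries and lower in 0, where 14.3% of all genes tested were higher and 3.19% lower. With fixed shares, at least 50% against under 20%, where single sections hold as few as 7 spots, 0 of 51 entries were called higher (3 with an unadjusted p under 0.05) and 0.0258% of all genes. The median log2 difference was 0.57 over the 51 entries, from 0.07 to 1.99, and -0.02 over all genes. The disulfide isomerase gene *Pdia2*, the ERAD gene *Sel1l* and the transcription factor gene *Xbp1* led, and 9 of the 17 entries without a call were chaperones or isomerases, *Hsp90b1*, *Hyou1*, *Pdia3* and *Pdia4* among them. Every one of the 51 log2 differences was above 0.

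How many entries were higher depended on the scaling. TMM factors, edgeR's scaling by a trimmed mean of log ratios, take most genes as not differing, whereas in CPM 49.7% of all genes were lower in the enzyme-rich group of all 4 sections. Olfactory receptors summed to fewer CPM there too, from 1096 to 739, from 17739 to 7984, from 14939 to 10060 and from 21713 to 14491 from the poor to the rich group. Without TMM factors the median of all genes moved to -0.47, and 12 of 51 entries were called higher, where 2.29% of all genes were, and 0 lower. The 12 were *Pdia2*, *Sel1l*, *Xbp1*, *Eif2ak3*, *Srpr*, *Edem1*, *Edem2*, *Atf4*, *Dnajc3*, *Herpud1*, *P4hb* and *Sec61b*. With all UMIs, enzymes included, as the library size, the median of all genes was -0.94, and 3 entries (*Pdia2*, *Sel1l* and *Xbp1*) were called higher and 28 lower, where 0.352% of all genes were called higher and 87.8% lower. All 51 entries lay above the median of all genes with and without TMM factors. Leaving out *Ehmt2* +/+ replicate 2 left 19 calls and leaving out *Ehmt2* fl/fl replicate 2 left 22. Of all genes, 1961 to 3286 were called in either direction with a section left out, against 3480 with all 4. By plain levels in CPM, 15 entries were higher in the enzyme-rich group in 4 of 4 sections, as were 3.8% of all genes, and 6 were lower in 4 of 4 (*Derl2*, *Hsp90b1*, *Hyou1*, *Sdf2l1*, *Pdia3* and *Sec61g*).

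**Figure D2:**
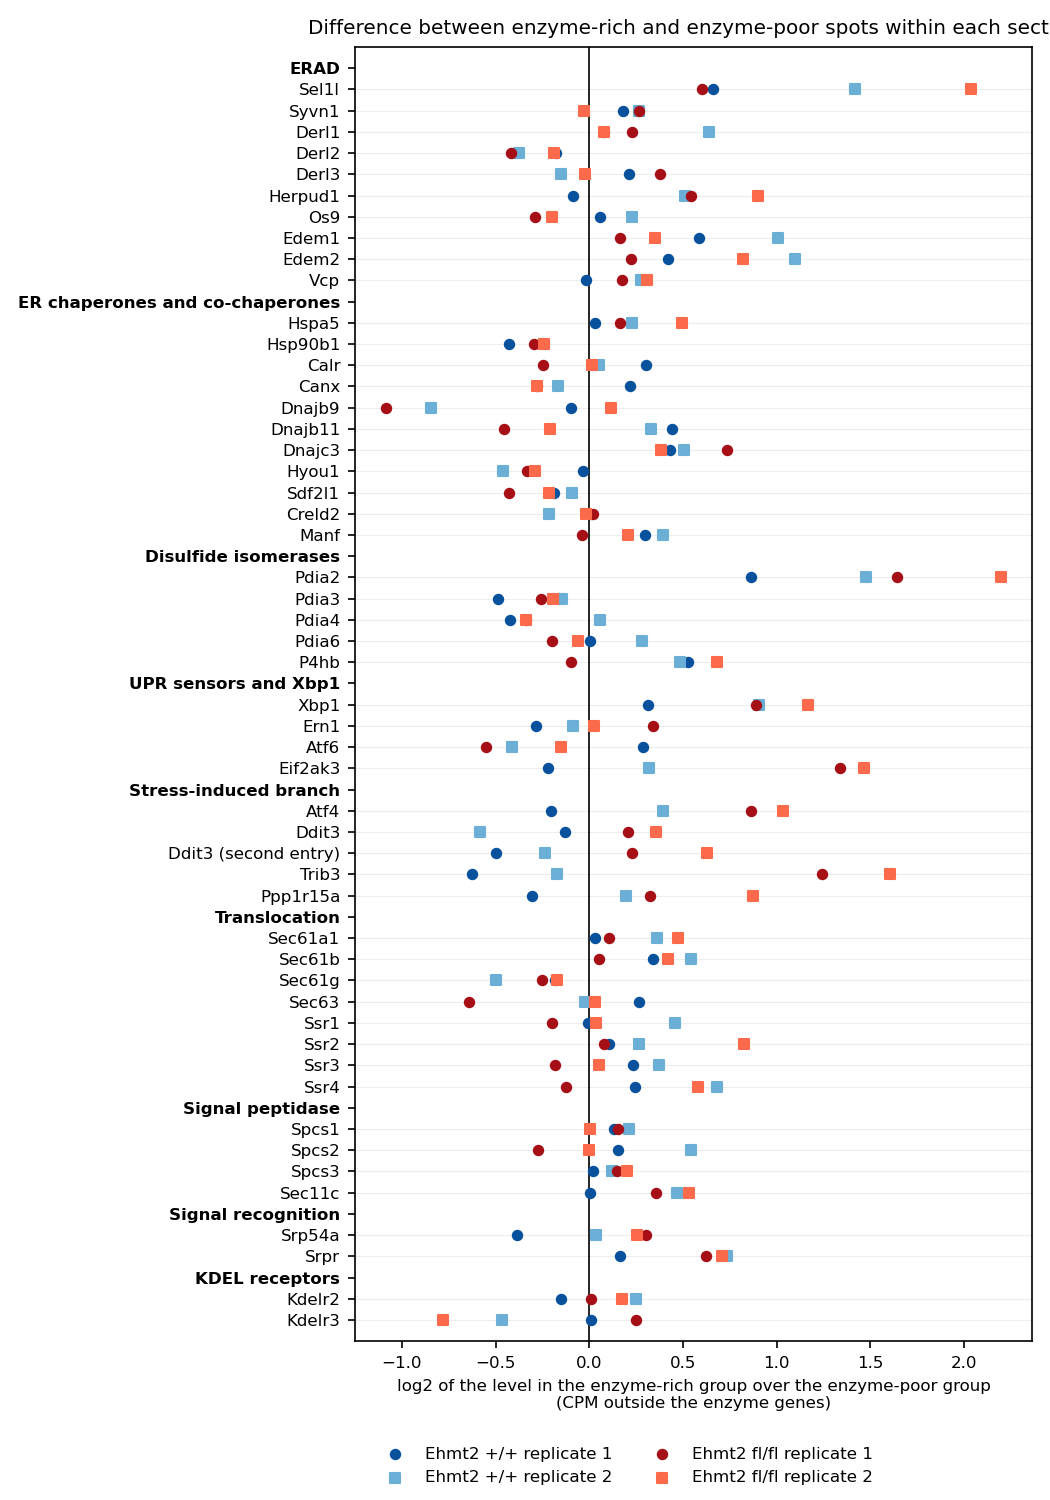
Log2 of the level in the enzyme-rich group over the enzyme-poor group for each entry, one point a section (blue *Ehmt2* +/+, red *Ehmt2* fl/fl, circles replicate 1, squares replicate 2), from levels in CPM. *Sel1l*, *Pdia2* and *Xbp1* lie to the right of 0 in all 4 sections, *Hsp90b1* and *Pdia3* to the left in all 4, and *Trib3* lies left of 0 in both *Ehmt2* +/+ and right of it in both *Ehmt2* fl/fl sections.

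Other features of the spots changed with the enzyme share. Median UMIs a spot went from 3082.5 to 9011, from 697 to 1123, from 858 to 1142 and from 918 to 1398 from the poor to the rich group. When groups were drawn within 10 bins of UMIs per spot, 20 entries were called higher. The share of all genes called higher in that fit is not given here. The median log2 difference was then 0.44 over the 51 entries and -0.02 over all genes. The summed level of 9 islet markers went from 11547 to 494, from 3030 to 581, from 17508 to 3228 and from 1777 to 744, and 8 of the 9 were lower in the rich group. Of 9 plasma and B cell markers 6 were lower, with summed levels from 31.7 to 21.3, from 399 to 108, from 670.1 to 177 and from 1261 to 190.3. Of 10 duct markers 6 were higher, with summed levels from 8620 to 9283, from 5394 to 7849, from 3199 to 6701 and from 2486 to 6795, and no marker of these 3 lists was at 0 in any section. Only 28 of 1135 olfactory receptor genes were at 0 in each section, so here and below a count above 0 does not show that a cell type is present. Islet and plasma cells are secretory cells as well, and with spots rich in either list left out 35 entries were called higher. In that fit the medians were 0.59 over the 51 entries and -0.02 over all genes, and its share of all genes called higher is not given either. Of the duct markers, *Krt18*, *Krt8* and *Epcam* had 92090, 70742 and 47160 UMIs over all sections, and no other had more than 11976. The duct sums therefore rest mainly on these genes and are not read as an amount of duct cells. The part of the duct markers in these results was not tested.

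In ERAD, 8 of 10 entries were higher in the enzyme-rich group (median log2 difference 0.68). *Sel1l*, the adaptor that keeps the ubiquitin ligase *Syvn1* stable and hands it substrates, had levels in CPM that went from 117 to 186 and from 28.1 to 75.1 in the *Ehmt2* +/+ sections and from 9.41 to 14.3 and from 3.95 to 16.2 in the *Ehmt2* fl/fl sections from the poor to the rich group. It was higher in the rich group of every section, although in the *Ehmt2* fl/fl sections it stayed below the 95th percentile of the olfactory receptors, and in the poor group of *Ehmt2* +/+ replicate 2 at it (28.1 there, 17.3 and 22.1 in the rich groups of *Ehmt2* fl/fl). Its log2 difference was 1.48 (SE 0.20, adjusted p = 1.04e-05). *Herpud1*, an ER membrane protein that binds the Hrd1 complex, went from 591 to 556, from 336 to 479, from 292 to 426 and from 286 to 533, and was higher in 3 of 4 sections, with a log2 difference of 0.93 (SE 0.21, adjusted p = 0.00188). *Edem1* and *Edem2*, which take part in trimming mannose from misfolded glycoproteins, were higher in all 4 sections (log2 differences 0.99 and 1.10, adjusted p = 0.000819 and 0.000233). *Derl2*, of the derlin family of the retrotranslocation channel, went the other way in plain levels, from 28.8 to 25.5, from 45.8 to 35.2, from 45.4 to 34.0 and from 38.5 to 33.8. Its log2 difference of 0.18 (SE 0.15, adjusted p = 0.435) did not pass, and neither did that of the lectin gene *Os9*. The other 5 genes of the group lay between 0.41 for *Os9* and 0.71 for *Derl1*.

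Of the 11 entries of chaperones and their partners, 5 were higher (*Hspa5*, *Calr*, *Dnajb11*, *Dnajc3* and *Manf*), with a median log2 difference of 0.41. *Dnajc3*, a co-chaperone of BiP that also restrains Perk, went from 169 to 229, from 85.9 to 122, from 70.9 to 118 and from 69.1 to 90.2 and was higher in every section, by 0.97 (SE 0.16, adjusted p = 8.87e-05) on the log2 scale. *Hspa5* went from 921 to 939, from 741 to 869, from 1419 to 1588 and from 959 to 1354. It too was higher in every section, but by less, and its log2 difference of 0.69 (SE 0.24, adjusted p = 0.04) lost its call without TMM factors (0.23, adjusted p = 0.313), within 10 bins of depth (0.122) and without any section but *Ehmt2* +/+ replicate 1. *Hsp90b1* went from 1800.4 to 1339, from 1625 to 1374, from 3358 to 2737 and from 2701 to 2288. It was lower in the rich group of all 4 sections in plain levels, with a log2 difference of 0.16 (SE 0.28, adjusted p = 0.733). *Dnajb9* had the lowest log2 difference of the group, 0.07 (SE 0.31, adjusted p = 0.901), on 7 to 19 UMIs a library. The other 7 genes of the group lay between 0.20 for *Hyou1* and 0.67 for *Manf*.

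The 5 disulfide isomerases, which form and shuffle disulfide bonds in new proteins, held the widest spread of any group. *Pdia2*, the isomerase made mainly in the pancreas, went from 761 to 1385 and from 248 to 689.5 in the *Ehmt2* +/+ sections and from 83.6 to 261 and from 53.8 to 247 in the *Ehmt2* fl/fl sections. The rich group was higher in every section, and in each *Ehmt2* fl/fl section it was far above the poor group. The log2 difference was 1.99 (SE 0.24, adjusted p = 2.32e-06), the highest of the 51 entries, and 1.51 without TMM factors. *P4hb*, the prototype of the family, was also higher (0.85, adjusted p = 0.000558). *Pdia3*, the partner of calreticulin and calnexin, went from 1236 to 883, from 1340.4 to 1214, from 2546 to 2133 and from 2071 to 1809, lower in every rich group in plain levels, and *Pdia4* went from 116 to 86.2, from 70.6 to 73.5, from 165 to 131 and from 126 to 99.7, lower in 3 of 4. Their log2 differences of 0.19 and 0.17 did not pass (adjusted p = 0.649 and 0.486).

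Among the sensors and *Xbp1*, 3 of 4 were higher. *Xbp1*, which acinar cells need to build their ER, went from 917 to 1139.6 and from 332 to 623 in the *Ehmt2* +/+ sections and from 141 to 262 and from 116 to 259 in the *Ehmt2* fl/fl sections. The rich group was higher in every section, with a log2 difference of 1.28 (SE 0.22, adjusted p = 0.000199). The files hold 1 count for *Xbp1*, spliced and unspliced forms together. *Eif2ak3* went from 1456 to 1249.5, from 1474 to 1843, from 609.8 to 1543 and from 391 to 1079, so it was higher in the rich group of 3 sections and lower in *Ehmt2* +/+ replicate 1 (log2 difference 1.19, SE 0.28, adjusted p = 0.00313). *Ern1* had a log2 difference of 0.44 (SE 0.15, adjusted p = 0.0355), which was -0.02 without TMM factors. *Atf6*, the sensor that is cut in the Golgi to release a transcription factor, went from 32.0 to 39.0, from 41.7 to 31.4, from 45.4 to 31.0 and from 39.99 to 36.1 and had the lowest value of the group, 0.31 (SE 0.15, adjusted p = 0.169).

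The genes that stress induces through *Atf4* had 4 of 5 entries higher (median 0.72). *Atf4*, the transcription factor of the branch, went from 747 to 650, from 260.1 to 342, from 312 to 569 and from 264 to 539. It was lower in the rich group of *Ehmt2* +/+ replicate 1 and higher in the other 3, with a log2 difference of 0.98 (SE 0.22, adjusted p = 0.00178). *Ddit3*, which encodes the factor Chop, has 2 entries at overlapping loci, whose UMIs cannot be told apart between the gene models. The first entry went from 26.4 to 24.2, from 32.1 to 21.5, from 29.9 to 34.6 and from 24.7 to 31.6 (log2 difference 0.44, SE 0.16, adjusted p = 0.0529), and the second went from 73.7 to 52.3, from 58.6 to 49.8, from 74.2 to 87.0 and from 54.8 to 84.8 (log2 difference 0.47, SE 0.15, adjusted p = 0.0316). Both entries were lower in the rich group of both *Ehmt2* +/+ sections and higher in that of both *Ehmt2* fl/fl sections. In the poor group of *Ehmt2* fl/fl replicate 2 the first entry lay under the 95th percentile of the olfactory receptors (33.6). *Ppp1r15a*, the phosphatase subunit that ends the translation block, had a log2 difference of 0.72 (SE 0.16, adjusted p = 0.00182).

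In translocation, 6 of 8 entries were higher (median 0.64). *Ssr4*, a subunit of the translocon-associated complex beside the channel, went from 231 to 273, from 91.5 to 147, from 112 to 103 and from 61.2 to 91.6, higher in 3 of 4 sections, with a log2 difference of 0.79 (SE 0.18, adjusted p = 0.002). *Sec61g*, a small subunit of the channel itself, went from 127 to 112, from 199 to 141, from 225 to 189 and from 196 to 174, lower in every rich group in plain levels, and its log2 difference of 0.19 (SE 0.15, adjusted p = 0.407) did not pass. The other channel subunits, *Sec61a1* and *Sec61b*, were higher (0.70 and 0.79, adjusted p = 0.00846 and 0.00108). The other 4 genes of the group lay between 0.46 for *Sec63* and 0.73 for *Ssr2*. All 4 signal peptidase genes were higher. *Sec11c*, a catalytic subunit, had the highest value (from 1203 to 1207, from 985 to 1363, from 754 to 965 and from 611 to 885, log2 difference 0.81, SE 0.24, adjusted p = 0.019), and *Spcs2* the lowest (from 77.5 to 86.2, from 57.8 to 84.3, from 81.4 to 67.4 and from 68.6 to 68.6, log2 difference 0.55, SE 0.16, adjusted p = 0.0128).

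Both signal recognition genes were higher. *Srpr*, the receptor that docks the signal recognition particle, went from 241 to 269.6, from 93.1 to 155, from 62.0 to 95.4 and from 61.7 to 101.0, higher in every section, with a log2 difference of 0.996 (SE 0.17, adjusted p = 0.000156). *Srp54a*, the subunit that binds the signal peptide, went from 169 to 129, from 218 to 224, from 258 to 318 and from 185 to 221, lower in the rich group of *Ehmt2* +/+ replicate 1, with 0.51 (SE 0.16, adjusted p = 0.0275). Neither of the 2 KDEL receptors, which return escaped ER proteins from the Golgi, passed the test. *Kdelr2* went from 619 to 558, from 314 to 374, from 440.3 to 443 and from 369.8 to 418 (log2 difference 0.53, SE 0.20, adjusted p = 0.0604), and *Kdelr3* went from 20.9 to 21.0, from 23.3 to 16.9, from 21.0 to 25.04 and from 39.5 to 23.0 (log2 difference 0.21, SE 0.18, adjusted p = 0.451). The 9 genes with an ERSE before their start had a median log2 difference of 0.49, with 5 of 9 called. The 32 other members with a promoter entry had a median of 0.58, with 22 of 32 called, and the difference between these groups was not tested.

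Along the enzyme share in steps of 10 percentage points, with bins of at least 20 spots, low and high bins differed as follows. In *Ehmt2* +/+ replicate 2, whose spots covered the widest range, *Pdia2* had 65.0 CPM in spots with a share under 10% and 799 in spots at 60% to 70%. *Xbp1* had 52.0 and 606 in the same bins, and *Sel1l* 0 and 91.4. The lowest of these bins held 89 spots and 0 UMIs of *Sel1l*. *Hsp90b1* ran the other way, from 2223 to 1371. In *Ehmt2* +/+ replicate 2 *Eif2ak3* went from 286 under 10% to 1904 at 60% to 70%, and *Trib3* from 0 to 51.7. In the bins between these *Trib3* had its highest level, 58.0, at 20% to 30% and its lowest, 37.3, at 50% to 60%. In *Ehmt2* +/+ replicate 1 *Eif2ak3* went from 516 at 20% to 30% (21 spots) to 1307.5 at 70% or more (66 spots), and *Trib3* from 0 to 83.7. Most spots of that section lay at 50% to 60% (1643 spots) and 60% to 70% (4266 spots). Between these bins *Eif2ak3* fell from 1501 to 1307 and *Trib3* from 74.0 to 47.7. In *Ehmt2* fl/fl replicate 1 *Eif2ak3* went from 485 under 10% to 1965 at 40% to 50%, and *Trib3* from 37.0 to 102. In *Ehmt2* fl/fl replicate 2 the same bins held 349.9 and 1149 of *Eif2ak3* and 22.3 and 100.2 of *Trib3*. The last bin of these 2 sections, at 50% to 60%, held 39 and 36 spots. *Eif2ak3* had 1857 and 1269 there and *Trib3* 39.5 and 100.2. These bins held only 25311 and 29935 UMIs outside the enzyme genes, so these levels of *Trib3* rest on very few UMIs and say little.

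**Figure D3:**
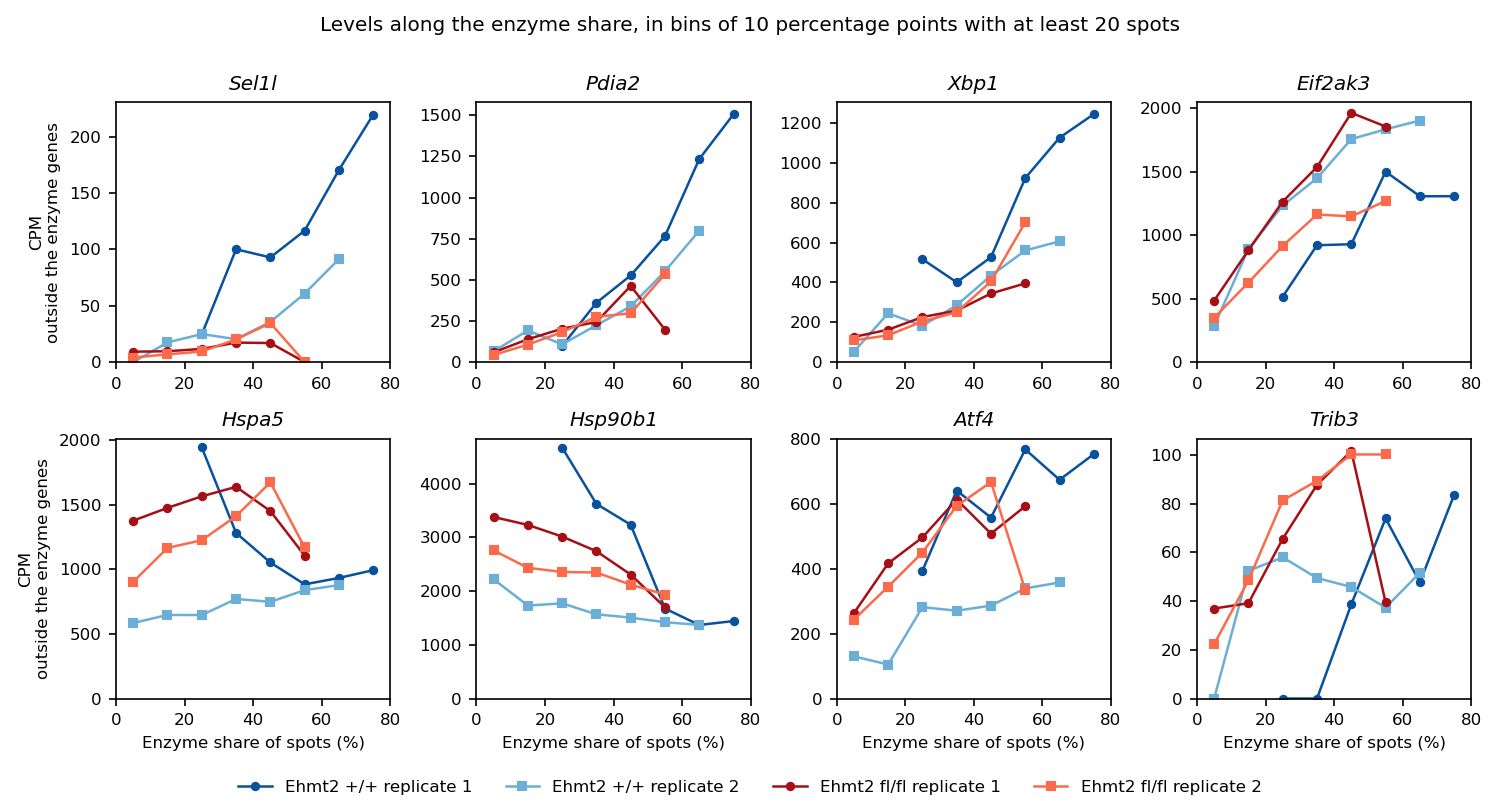
Levels of 8 members, in CPM outside the enzyme genes, against the enzyme share of spots in bins of 10 percentage points with at least 20 spots, one line a section (blue *Ehmt2* +/+, red *Ehmt2* fl/fl). In *Ehmt2* +/+ replicate 2 *Pdia2* and *Xbp1* are higher and *Hsp90b1* lower in the last bin than in the first, although *Pdia2* and *Xbp1* drop from 192 to 108 and from 245 to 182 between the 10% and the 20% bin. At shares below 50% *Sel1l* has at most 35.6 in every section but *Ehmt2* +/+ replicate 1. That section has 24.6 at 20% to 30% (21 spots) and 92.9 at 40% to 50% (110 spots).

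Further genes of the same pathways were counted in the same fit. Of 93 tested, 57 were higher in the enzyme-rich group and 0 lower, with a median log2 difference of 0.49. The count was 10 of 12 for further translocation and targeting genes, led by *Srp54c* (1.04) and *Srp68* (0.91), and 7 of 12 for the oligosaccharyltransferase that attaches glycans, led by *Krtcap2* (0.75). It was 9 of 18 for further ERAD genes, led by the ubiquitin-conjugating enzyme gene *Ube2j1* (1.004), and 10 of 18 for further folding genes, led by the peroxiredoxin gene *Prdx4* (1.07) and the cyclophilin gene *Ppib* (0.98). Transport from ER to Golgi had 12 of 17, led by *Mia3* (0.94), which helps load large cargo. Further stress genes had 9 of 16, led by *Nupr1* (1.92) and the asparagine synthetase gene *Asns* (1.53).

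The second comparison asked which members differed between the genotypes over all spots over tissue. Of 51 entries, 1 was lower in *Ehmt2* fl/fl sections and 0 were higher, where of the 20066 genes tested 0.0947% were called in either direction, 0.0399% lower and 0.0548% higher (12 entries had an unadjusted p under 0.05, and DESeq2 called 6 lower, *Sel1l*, *Pdia2*, *Xbp1*, *Edem1*, *Edem2* and *Srpr*). All genes, enzymes included, entered both fits. For DESeq2 the share of all genes called is not given here. Its median log2 fold changes were -1.79 over the members and -0.04 over all genes. The entry called in the edgeR fit was *Sel1l*. It had 2611 and 211 UMIs in the *Ehmt2* +/+ sections and 65 and 66 in the *Ehmt2* fl/fl sections. In CPM these were 161 and 49.2 in the *Ehmt2* +/+ sections and 11.8 and 9.78 in the *Ehmt2* fl/fl sections, with 95% Poisson intervals for counting error alone of 155 to 167, 42.8 to 56.3, 9.12 to 15.1 and 7.57 to 12.4. Both *Ehmt2* fl/fl sections lay below both *Ehmt2* +/+ sections, and also below the 95th percentile of the olfactory receptors there (21.8 and 27.5), where its level cannot be told from background counts. As *Ehmt2* fl/fl over *Ehmt2* +/+, the log2 fold change was -4.68 (SE 1.10, adjusted p = 0.0245).

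The call on *Sel1l* was kept with DESeq2 (adjusted p = 0.000101) and without *Ehmt2* +/+ replicate 1. It was lost with library sizes in place of TMM factors (log2 -2.30, adjusted p = 0.111), with upper-quartile scaling (0.219), with the slide as a block (0.126) and without either *Ehmt2* fl/fl section (adjusted p = 1 in both cases). Without *Ehmt2* +/+ replicate 2, 47 entries were called lower, *Sel1l* among them, each against *Ehmt2* +/+ replicate 1 alone, and 36.3% of all genes were called lower as well. Within slide 1, *Ehmt2* +/+ replicate 1 and *Ehmt2* fl/fl replicate 1 had 161 and 11.8 CPM, and within slide 2 the other pair had 49.2 and 9.78. The enzyme share of the tissue was also lower in the *Ehmt2* fl/fl sections. *Sel1l* was higher in the enzyme-rich group of every section, but in *Ehmt2* fl/fl both groups lay under the 95th percentile of the olfactory receptors. The part of the enzyme share in the genotype difference of *Sel1l* was not tested.

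The direction of the other members between genotypes depended on the scaling. With TMM factors the median log2 fold change was -1.31 over the 51 entries and 0.25 over all genes. With library sizes alone, enzymes included, the medians were 0.86 and 1.64. Under both scalings the median of the members lay below that of all genes. All genes here include genes at background level, since 20066 of the 20387 genes fitted without a filter were tested. Between rich and poor groups 1094 of 1135 olfactory receptor genes were tested, whereas 47 of the 51 entries lay above background in all 4 sections. Background counts differed between sections, as given above, and their part in the medians and shares of all genes was not tested. With TMM factors the medians were -0.03 and 0.04 without *Ehmt2* +/+ replicate 1 and -2.11 and 0.52 without *Ehmt2* +/+ replicate 2. By levels in CPM, both *Ehmt2* fl/fl sections lay below both *Ehmt2* +/+ sections for 13 entries, as for 5.64% of all genes, and above them for 14, as for 48.1% of all genes. The other 24 overlapped. Cell type markers moved with the genotypes too. Over tissue 8 macrophage markers summed, in CPM, to 186 and 267 in the *Ehmt2* +/+ sections and 954 and 792 in the *Ehmt2* fl/fl sections, 7 fibroblast markers to 1160 and 1298 in the *Ehmt2* +/+ sections and 2764 and 2575 in the *Ehmt2* fl/fl sections, and 10 duct markers to 9133 and 6579 in the *Ehmt2* +/+ sections and 4850.4 and 4655 in the *Ehmt2* fl/fl sections, with no marker of these lists at 0 in any section. The duct sums rest mainly on *Krt18*, *Krt8* and *Epcam*, as given above. The part of macrophages, fibroblasts and the cells that hold the duct markers in the genotype results was not tested.

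*Pdia2* and *Xbp1*, which with *Sel1l* had the highest differences between rich and poor groups, were among the 13. Levels of the *Ehmt2* +/+ sections are set against those of the *Ehmt2* fl/fl sections from here on. *Pdia2* had 1147 and 454 against 166 and 142 CPM. Both *Ehmt2* fl/fl sections were far below both *Ehmt2* +/+ sections, and the log2 fold change was -3.73 (SE 1.36, adjusted p = 0.647) with TMM factors and -1.42 with library sizes. *Xbp1* had 1085 and 469 against 193 and 176, again without overlap. Its log2 fold change was -3.41 (SE 1.33, adjusted p = 0.764) with TMM factors and -1.12 with library sizes. *Srpr* had 263 and 124 against 77.4 and 77.7 and *Dnajc3* had 205 and 105 against 92.5 and 78.3, both without overlap. Their log2 fold changes were -2.64 and -2.15 with TMM factors (adjusted p = 0.832 and 0.872) and -0.37 and 0.07 with library sizes, so the sign of *Dnajc3* turned with the scaling. *Herpud1* had 574 and 415 against 342 and 394, with the nearest sections of the genotypes close together. *Sec11c* had 1217 and 1174 against 856 and 727 and *Ssr4* had 258 and 125 against 106 and 74.3. The log2 fold changes of *Herpud1*, *Sec11c* and *Ssr4* were -1.64, -1.70 and -2.38 with TMM factors (adjusted p = 0.872 for each) and 0.48, 0.28 and -0.15 with library sizes.

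The 14 entries that lay above in both *Ehmt2* fl/fl sections, as 48.1% of all genes did, came from several groups. Of the chaperones and isomerases they held *Hspa5*, *Hsp90b1*, *Calr*, *Hyou1*, *Pdia3* and *Pdia4*, while the rest of these groups lay below or overlapped. The others were *Atf6*, both entries of *Ddit3*, *Trib3*, *Ppp1r15a*, *Sec61g*, *Ssr3* and *Kdelr3*. *Pdia4* had 96.1 and 73.5 against 144 and 115 and *Sec61g* had 119 and 159 against 212 and 190.4. With TMM factors the log2 fold changes of *Hspa5*, *Pdia4* and *Sec61g* were -0.52, -0.56 and -0.47 (adjusted p from 0.872 to 0.877), and with library sizes they were 1.503, 1.51 and 1.37, so their sign turned with the scaling. Of the stress genes, the first entry of *Ddit3* had 24.6 and 24.3 against 32.2 and 32.0, without overlap. *Atf4* had 687 and 311 against 438 and 392, with overlap. Their log2 fold changes were -0.72 and -1.59 with TMM factors and 1.27 and 0.68 with library sizes, a change of sign as well. *Kdelr3* had 20.7 and 19.8 against 23.5 and 31.7 and *Atf6* had 37.6 and 34.3 against 39.1 and 42.4, both without overlap. *Kdelr3* lay close above the 95th percentile of the olfactory receptors in *Ehmt2* +/+ replicate 2 (19.1) and both *Ehmt2* fl/fl sections (21.8 and 27.5), which rises in the same order. *Kdelr2* had 564 and 336 against 444 and 386, *Derl2* had 26.1 and 39.6 against 40.7 and 36.8, *Spcs2* had 85.2 and 70.7 against 72.0 and 68.3 and *Srp54a* had 144 and 222 against 284 and 199, all with overlap. The log2 fold changes of these 6 genes lay between -1.37 for *Kdelr2* and -0.54 for *Srp54a* with TMM factors and between 0.74 for *Spcs2* and 1.32 for *Kdelr3* with library sizes. *Dnajb9* had -0.22 and 1.25, and none of these 7 genes passed the test.

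The third comparison set the genotypes side by side within a range of enzyme share, in spots with 20% to 50%. Inside this range the shares still differed. At 40% to 50% lay 110 and 1752 spots of the *Ehmt2* +/+ sections and 245 and 236 of the *Ehmt2* fl/fl sections. There were 162 and 2748 such spots in the *Ehmt2* +/+ sections and 3237 and 2816 in the *Ehmt2* fl/fl sections, so *Ehmt2* +/+ replicate 1 entered with few. Its spots were also rich in islet markers. The 9 islet markers summed to 96959 and 2662 CPM in the *Ehmt2* +/+ sections and 3619 and 772 in the *Ehmt2* fl/fl sections. The part of islet cells in this comparison was not tested. With 2 sections against 2, an exact two-sided permutation test of a single gene cannot give a p below 0.333, so the fit over all genes is the only test given. Here 0 of 51 entries were called, where 0.413% of 19629 genes were called in either direction (4 entries had an unadjusted p under 0.05, and DESeq2 called 0). The median log2 fold change was -0.30 over the members and 0.04 over all genes. It turned to 0.31 over the members without *Ehmt2* +/+ replicate 1 (-0.00677 over all genes) and was -0.90 without *Ehmt2* +/+ replicate 2 (0.66). Both *Ehmt2* fl/fl sections lay below both *Ehmt2* +/+ sections for 9 entries (7.25% of all genes did) and above them for 6 (17.6% of all genes).

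*Sel1l* lay below in both *Ehmt2* fl/fl sections in these spots too, with 81.9 and 30.4 in the *Ehmt2* +/+ sections and 13.9 and 15.1 in the *Ehmt2* fl/fl sections. Its log2 fold change was -1.67 (SE 0.50, adjusted p = 0.133), and the level in *Ehmt2* +/+ replicate 2 had a Poisson interval of 21.5 to 41.7, against 9.65 to 19.3 and 10.9 to 20.3 in the *Ehmt2* fl/fl sections. *Pdia2* had 409.6 and 285 in the *Ehmt2* +/+ sections and 234 and 222 in the *Ehmt2* fl/fl sections. *Xbp1* had 496 and 369 in the *Ehmt2* +/+ sections and 245 and 237 in the *Ehmt2* fl/fl sections. Neither overlapped between genotypes, and the log2 fold changes were -0.71 and -0.95 (adjusted p = 1 for both). *Hspa5* had 1269.6 and 745 in the *Ehmt2* +/+ sections and 1580.4 and 1325 in the *Ehmt2* fl/fl sections, above in both *Ehmt2* fl/fl sections, which were closer to *Ehmt2* +/+ replicate 1 than the *Ehmt2* +/+ sections were to each other. *Trib3*, a pseudokinase that *Atf4* and Chop induce, had 22.8 and 48.0 in the *Ehmt2* +/+ sections and 75.2 and 85.6 in the *Ehmt2* fl/fl sections, above in both *Ehmt2* fl/fl sections, with a log2 fold change of 1.04 (SE 0.51, adjusted p = 1). The level of *Trib3* in *Ehmt2* +/+ replicate 1 rested on 5 UMIs, with a Poisson interval of 7.39 to 53.1. All 5 entries of the stress-induced branch had positive log2 fold changes here, from 0.20 to 1.04, none past the test. Without *Ehmt2* +/+ replicate 2, when that genotype rests on 162 spots of 1 section, 16 entries were called, 15 of them lower, *Sel1l* and *Xbp1* among them, and 1 higher (*Ddit3*), where 3.56% of all genes were called lower.

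The same comparison was thin at other shares. In spots under 20%, with 7 spots in *Ehmt2* +/+ replicate 1, 0 of 51 entries were called (0.18% of all genes; 3 entries had an unadjusted p under 0.05, and DESeq2 called 0). In spots of at least 50%, with 40 and 36 spots in the *Ehmt2* fl/fl sections, 3 of 50 entries tested were lower in *Ehmt2* fl/fl, *Sel1l*, *Edem2* and *Pdia2*, where 0.396% of all genes were called in either direction and 0.356% lower. DESeq2 called 0 of them, as did the fit without TMM factors. Leaving out a section leaves 1 section in a genotype, and these fits do not repeat the test. Without *Ehmt2* +/+ replicate 1 only 14 entries were tested, with a median log2 fold change of 0.04 (0.03 over all genes). Without *Ehmt2* +/+ replicate 2 only 17 were, with a median of -0.50 (-0.01 over all genes). *Sel1l* had 0 UMIs in these spots of both *Ehmt2* fl/fl sections. The 39 and 36 spots at 50% to 60% there held only 25311 and 29935 UMIs outside the enzyme genes, so a count of 0 says little.

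The fourth comparison asked whether the difference between rich and poor groups itself differed with genotype, by an interaction term in the same fit. Of 51 entries, 1 was called, *Trib3*, and its difference was higher in *Ehmt2* fl/fl, where 0.392% of 19896 genes were called in either direction and 0.317% in this one. *Trib3* was named because of this call. Its levels went from 68.4 to 44.4 and from 46.6 to 41.4 from the poor to the rich group in the *Ehmt2* +/+ sections. In the *Ehmt2* fl/fl sections they went from 36.0 to 85.3 and from 28.6 to 87.0. In CPM the rich group was thus lower in both *Ehmt2* +/+ sections and higher in both *Ehmt2* fl/fl sections, and the 2 *Ehmt2* fl/fl rich groups were the highest of the 8 libraries. In *Ehmt2* +/+ replicate 2 the Poisson intervals of the poor and the rich group overlapped (35.3 to 60.2 and 31.1 to 54.0). With TMM factors all 51 entries, *Trib3* among them, had log2 differences above 0 in the *Ehmt2* +/+ sections alone. In the poor group of *Ehmt2* fl/fl replicate 2 the gene lay under the 95th percentile of the olfactory receptors (33.6). The interaction was 1.75 on the log2 scale (SE 0.29, adjusted p = 2.24e-06).

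The poor and rich groups of the 2 genotypes cover different ranges of enzyme share, as given above, so the term compares a high range in *Ehmt2* +/+ with a low one in *Ehmt2* fl/fl. The call on *Trib3* was lost without *Ehmt2* +/+ replicate 1 (log2 1.196, adjusted p = 0.172) and without *Ehmt2* fl/fl replicate 2 (1.48, 0.51), and with fixed shares of at least 50% against under 20% (0.651), where single sections hold as few as 7 spots. It was kept with DESeq2, without TMM factors, with a split at the median share, with spots of at least 1000 UMIs and within 10 bins of depth.

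**Figure D4:**
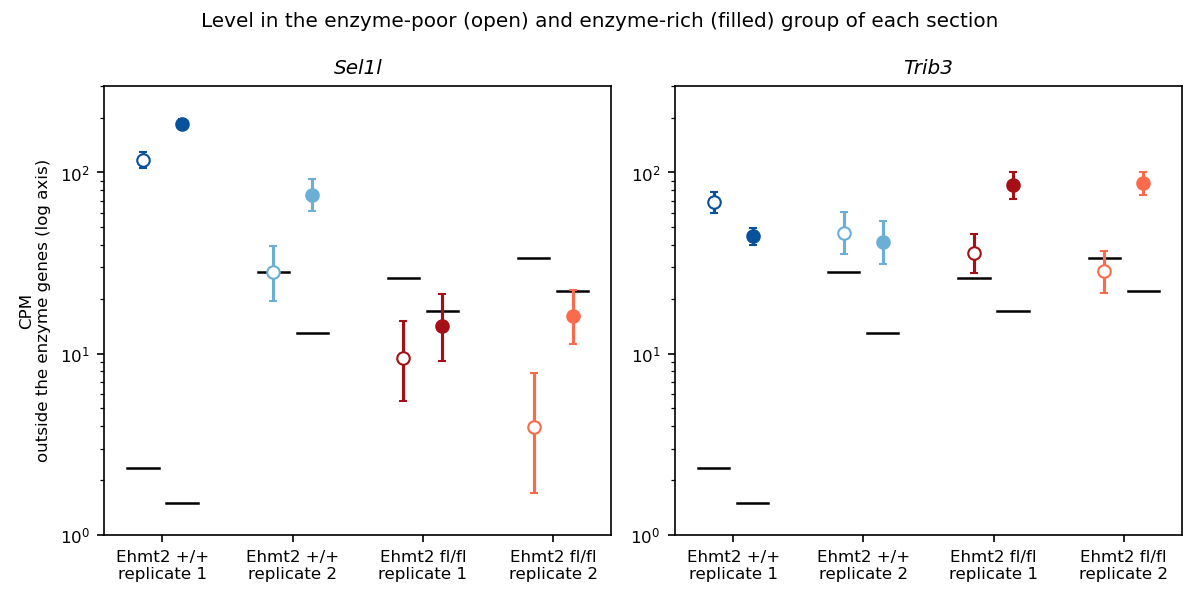
Level of *Sel1l* and *Trib3* in the enzyme-poor (open) and enzyme-rich (filled) group of each section, in CPM outside the enzyme genes on a log axis, with 95% Poisson intervals for counting error and the 95th percentile of the olfactory receptor genes as a black bar. *Sel1l* in the *Ehmt2* fl/fl sections lies below the bars, and *Trib3* is higher in the rich than in the poor group in both *Ehmt2* fl/fl sections and lower in both *Ehmt2* +/+ sections.

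The rest of the stress-induced branch had positive interaction values as well, though none passed. They were 0.68 (adjusted p = 0.873) for *Atf4*, 0.41 (adjusted p = 0.896) and 0.67 (adjusted p = 0.569) for the 2 entries of *Ddit3* and 0.54 (adjusted p = 0.785) for *Ppp1r15a*. *Eif2ak3*, the kinase gene upstream of the branch, had 1.16 (adjusted p = 0.72). Over the 51 entries 16 values were positive and the median was -0.13, against 0.05 over all genes. Without *Ehmt2* +/+ replicate 2 these medians were 0.0147 and 0.0127, and without *Ehmt2* +/+ replicate 1 -0.43 and -0.0186. *Eif2ak3* was called along with *Trib3* by DESeq2 and with spots of at least 1000 UMIs, and *Eif2ak3*, *Atf4* and the second entry of *Ddit3* were called along with *Trib3* without TMM factors. In CPM 4 entries (*Ern1*, *Trib3* and both of *Ddit3*) were lower in the rich group of both *Ehmt2* +/+ sections and higher in that of both *Ehmt2* fl/fl sections, a pattern of 3.35% of all genes. The opposite pattern held for 4 entries (*Os9*, *Dnajb11*, *Pdia6* and *Spcs2*) and 1.31% of all genes.

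The lowest interaction was that of *Dnajb11*, a co-chaperone of BiP, at -0.88 (adjusted p = 0.352). Of the groups by role, ERAD had a median of -0.22, chaperones -0.29, translocation -0.39 and the stress-induced branch 0.67. Fitted in 1 genotype at a time, the rich group was higher in 0 of 51 entries in *Ehmt2* +/+ (1 with an unadjusted p under 0.05) and in 30 in *Ehmt2* fl/fl, with member medians of 0.63 and 0.47. Of all genes 0.0527% were called higher in *Ehmt2* +/+ and 12% in *Ehmt2* fl/fl. The 2 *Ehmt2* +/+ sections differed more from each other in depth and share than the 2 *Ehmt2* fl/fl sections, and the counts themselves are no test of a difference between genotypes. Of the marker lists, 8 macrophage markers, none of them at 0 in any section, summed to 151, 159, 664 and 549.8 CPM in the rich groups, with both *Ehmt2* fl/fl sections above, and the part of such cells in the values of *Trib3* and its branch was not tested.

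**Figure D5:**
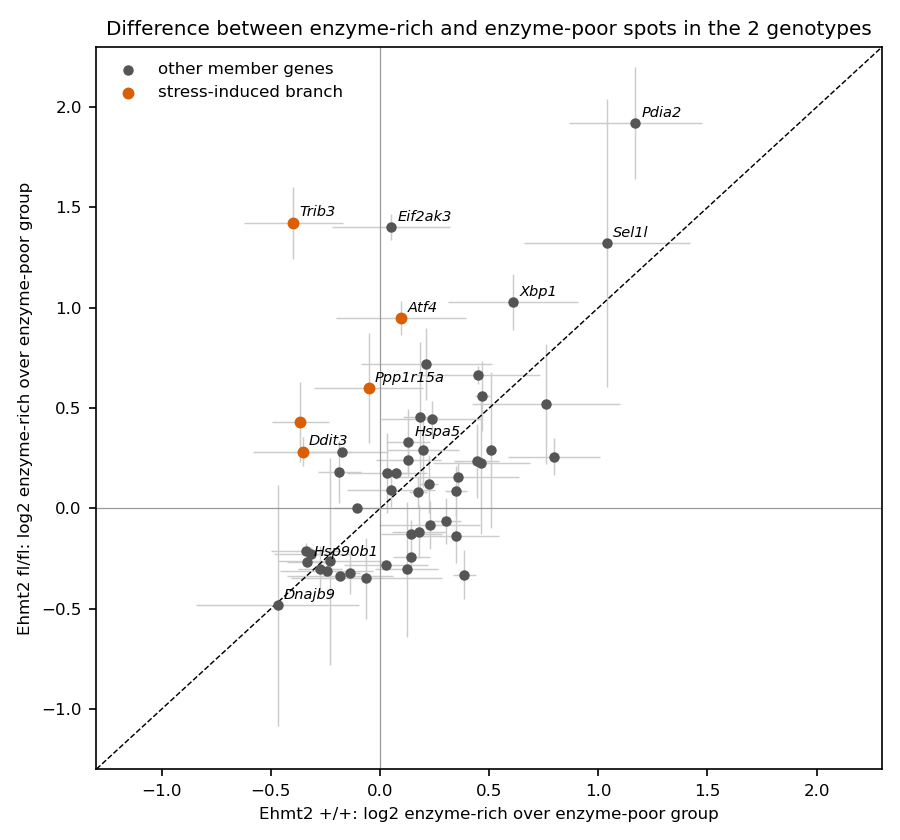
Mean log2 difference between the enzyme-rich and the enzyme-poor group in *Ehmt2* +/+ (horizontal) and *Ehmt2* fl/fl (vertical), one point an entry, with bars that span the 2 sections and a dashed line of equality. The 5 entries of the stress-induced branch (orange) lie above the line, *Trib3* farthest.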

How the data were processed

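Counts were UMIs per gene and barcode, as deposited in raw matrices of all barcodes, which the authors made with Space Ranger 2.0.1 against mm10 and the mouse probe set (per the file headers). The 304 deprecated features of 32589, with 0.477 to 0.803% of UMIs, were left out. Of 14336 barcodes, 13898 were listed in all 4 sections, as barcodes name positions on the array and not cells. Spots over tissue were those above the dip between both peaks of a section's histogram of log10 UMIs; the tissue marks of the deposited alignment files carry no barcodes and were not used. Counts were summed per section and set of spots and tested with edgeR 4.0.16 (quasi-likelihood test, TMM, threshold of 0.05 after Benjamini-Hochberg adjustment, filterByExpr at a minimum of 10 counts) in R 4.3.3, with limma 3.58.1; DESeq2 1.42.0 was an alternative. Tables and figures used Python 3.11.15, matplotlib 3.10.9, scipy 1.17.1, pandas 2.3.3 and numpy 2.4.6. The fits were also run on simulated counts, in which all libraries shared the same gene proportions apart from the genes changed on purpose. That run does not cover the difference in composition between these sections, on which the scaling turns. Alternatives changed the tool, the scaling, the filter, the spots, the split and the sections, and the slide block. Groups came from the sample labels, replicates being separate mice. Values were given for *Sel1l*, *Hspa5*, *Xbp1*, *Pdia2*, *Herpud1*, *Ddit3* and *Atf4* and for the genes with the highest and the lowest difference between rich and poor groups in each list by role; of other lists the leading genes past the threshold were named. *Edem1*, *Edem2*, *P4hb*, *Eif2ak3*, *Hsp90b1*, *Pdia3*, *Trib3* and other members were named after their values were seen. The members and lists were chosen with earlier results of these data known. Intervals cover counting error alone.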

Additional observations from a re-analysis of the deposited data

Results flagged for a closer look

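*Trib3* stood out because its difference between the enzyme-rich and the enzyme-poor group differed with genotype in the test of that difference itself. The difference of differences was 1.75 on the log2 scale, *Ehmt2* fl/fl minus *Ehmt2* +/+ (SE 0.29, adjusted p = 2.24e-06 by edgeR's quasi-likelihood test, 2 sections a genotype). By levels in CPM the gene was lower in the rich group of 2 of 2 *Ehmt2* +/+ sections and higher in that of 2 of 2 *Ehmt2* fl/fl sections. With TMM factors its log2 difference in the *Ehmt2* +/+ sections alone was above 0, as for all 51 entries. The call was lost with fixed shares and with some sections left out, as given above. No explanation was tested.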

How the results depend on the processing

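Replicate numbers follow the order of the samples and pair nothing. The labels give no replicate numbers. By the file headers each slide held 1 section of each genotype, and with the slide as a block 0 members were called over tissue and 0 at a share of 20% to 50%. For the genotype difference over tissue, 1 member was called, against 6 with DESeq2 and 0 with library sizes or upper-quartile scaling, and 0 to 47 with a section left out. For enzyme-rich against enzyme-poor spots, 34 were called, against 12 without TMM factors, 0 with fixed shares, 20 within 10 bins of depth, 0 in *Ehmt2* +/+ alone, and 19 to 32 with a section left out. For the interaction, 1 was called, against 2 with DESeq2 or at least 1000 UMIs a spot, 4 without TMM factors, 0 with fixed shares, and 0 to 4 with a section left out. At a share of 20% to 50%, 0 to 16 were called with a section left out; at 50% or more, 3 were called, against 0 with DESeq2 or library sizes and 0 to 6 with a section left out. Over all genes the calls ran from 0 to 16701 around 19 over tissue, from 6 to 17542 around 3480 between rich and poor groups, from 8 to 350 around 78 for the interaction, from 1 to 63 around 35 under 20%, from 5 to 901 around 81 at 20% to 50% and from 0 to 83 around 49 at 50% or more. Values less the median of all genes turned sign over tissue without *Ehmt2* +/+ replicate 1 for *Hspa5* (0.50), *Ddit3* (0.15), *Atf4* (0.18), *Pdia4* (0.58), *Sec61g* (0.0967), *Kdelr2* (0.0702) and *Kdelr3* (0.22), where without *Ehmt2* +/+ replicate 2 they were, in the same order, -1.78, -1.93, -3.03, -1.87, -1.55, -2.74 and -1.91. Between rich and poor groups they turned with at least 1000 UMIs a spot for *Derl2* (-0.0128), *Pdia4* (-0.00633) and *Kdelr3* (-0.0322), without *Ehmt2* +/+ replicate 2 for *Pdia4* (-0.00311, with 0.27 without *Ehmt2* +/+ replicate 1) and without *Ehmt2* fl/fl replicate 2 for *Dnajb9* (-0.15, with 0.31 without *Ehmt2* fl/fl replicate 1). The causes were not tested. With 1 section left in a genotype, its spread is taken from the other genotype. Shares of all genes called are not given for each alternative, so counts of members alone show no excess over all genes. The slide, the 10 bins of depth and the single genotypes were chosen after seeing the data. *Sel1l*, *Derl3*, *Dnajb9* and *Sec63* did not clear background in every section.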
